A study of Mus musculus with 2 samples.

Results

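Keratins are the intermediate filament proteins of epithelial cells, and the keratin genes were taken here as every gene whose whole symbol is Krt followed by digits. Of the 31053 genes in the matrix, 49 met this rule: 25 encode type I keratins, 23 encode type II keratins, and Krt222, a keratin-like gene, was counted with neither type. The choice used the symbols alone and no measured value.

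The cells came from mandibular incisors of untreated 4-week-old C57BL/6 mice. Dental pulp was taken out together with the dental epithelium, digested with collagenase and run on a 10x Genomics 3′ kit (v3 chemistry), so each value is a count of unique molecular identifiers (UMIs), one per captured mRNA molecule. The tissue is labelled dental mesenchyme, but a class with all 8 epithelial markers was present. Sample titles number 2 and differ in the sequencing lane, the number of animals is not given in the sources used here, and all barcodes stand in 1 matrix without a map to a title. The matrix was therefore treated as 1 sample: there is no replicate check, no test and no p-value, and every interval below is an exact 95% interval that covers counting error alone.

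After filters on barcodes, 4538 cells remained with a median of 5791.5 UMIs. Epithelial cells numbered 768 (16.92% of cells) and mesenchymal cells 1943 (42.82%), and the summed level of the 8 epithelial markers was 1904 CPM in the first and 32.2 CPM in the second, where CPM is the gene's UMIs summed over the cells and divided by their total in units of 1000000 UMIs. All keratin genes were left out of the clustering and of the marker lists. Clusters of 254, 202 and 38 cells, led by Fmod, H2-Eb1 and Hs3st1, stayed unnamed, and the first of them had 8 of the mesenchymal markers raised.

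Keratin filaments are built from obligate pairs of a type I (acidic) and a type II (basic) chain, and which pair a cell makes depends on its kind and its state. Krt5 and Krt14 form the network of basal cells of stratified epithelia, Krt8 and Krt18 that of simple epithelia, and Krt1 and Krt10 that of differentiating epidermis. Krt17 is typical of skin appendages and of wounded epidermis, while Krt27, Krt28, Krt73 and Krt75 are known from the inner layers of the hair follicle. The enamel organ of the incisor is an epithelium that renews throughout life. Its ameloblasts secrete enamel matrix, the stratum intermedium lies next to them, and the outer enamel epithelium and stellate reticulum lie further out.

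The genes lie in clusters on 2 chromosomes (GRCm38, mm10, GENCODE M21 annotation). On chromosome 11, 25 members including Krt222 lie between 99232761 and 100269871, all type I apart from Krt222. On chromosome 15, 24 members lie between 101347444 and 102032027. They are the 23 type II genes and, at the end of the cluster next to Krt8, the type I gene Krt18. UMIs of the chromosome 11 members summed to 14257 in the cells and those of the chromosome 15 members to 7101.

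The 100 bases before the RefSeq start are shown for 3 members that stand for 3 patterns described below: Krt5, high in the whole epithelium; Krt27, highest in the early ameloblast-like group; and Krt10, at a like level in epithelium and mesenchyme. The sequences are from RefSeq on GRCm38.p6, read 5′ to 3′ on the gene's own strand, which is minus for all 3, with the motif TATAAA in capitals where it occurs.
Krt5, chr15:101712906-101713005: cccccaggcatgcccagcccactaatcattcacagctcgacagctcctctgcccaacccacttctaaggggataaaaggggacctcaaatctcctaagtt
Krt27, chr11:99351119-99351218: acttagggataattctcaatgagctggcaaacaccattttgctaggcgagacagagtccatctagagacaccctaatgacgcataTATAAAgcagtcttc
Krt10, chr11:99389365-99389464: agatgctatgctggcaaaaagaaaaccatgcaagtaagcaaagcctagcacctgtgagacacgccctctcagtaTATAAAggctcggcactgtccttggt
TATAAA, searched on both strands of the 100 bases before each start, occurred in 14 of 36 promoters of 35 keratin genes (38.9%) and in 5.56% of all 32851 promoters in the table. GCCNNNGGC, a form of the AP-2 motif searched in the same way, occurred in 3 of 36 (8.33%) and in 6.78% of all. These are matches of letters in a window and say nothing of binding. Krt17 and Krt80 had no entry.

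The keratin family as a whole was an epithelial signal carried by few genes. In the 4538 cells, 21358 keratin UMIs were counted, of which 92.5% were in the epithelial class. The family summed to 1947 CPM (1920 to 1974) in epithelial cells, to 64.0 CPM (60.2 to 68.1) in mesenchymal cells, to 71.0 CPM in macrophages and to 15.7 CPM (6.32 to 32.4) in endothelial cells. Krt14, Krt5 and Krt17 together made up 83.8% of the epithelial keratin UMIs. An epithelial cell held a median of 14 keratin UMIs (quartiles 6 and 30, highest 269), and 23 of the 768 cells held none.

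Of the 49 members, 36 were detected in the barcodes with at least 500 genes and at most 20% mitochondrial UMIs, and 13 were at 0. The 8 members with at least 100 UMIs over epithelial and mesenchymal cells together (Krt14, Krt5, Krt17, Krt80, Krt27, Krt8, Krt18 and Krt10) are described one by one. Another 26 members had fewer than 100 UMIs there and 15 had none. A comparison was made only where a gene had at least 30 UMIs over both sides, which 13 members had, and a gene was called higher or lower where the summed levels differed at least 2-fold.

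Against the mesenchyme, 11 of the 13 measured members were higher in the epithelium, while 10.8% of the 12809 genes measured in the same way were. The other two were Krt222, which was lower, and Krt10, which was not called. Of all genes, 19.8% were lower. Amelx, which encodes the enamel protein amelogenin, took 15.9% of all epithelial UMIs. Totals without the 5 dominant genes, those with more than 1% of the UMIs of epithelium or of mesenchyme, moved the median log2 ratio of all genes from -0.28 to 0.02, and the family's epithelial level from 1947 to 2501 CPM, and 11 members were still higher and 1 lower, beside 14.0% and 14.8% of genes.

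Krt14, the type I chain of basal cells, was at 824 CPM (806 to 842) in epithelium and 3.34 CPM (2.51 to 4.36) in mesenchyme, a log2 ratio of 7.95 (7.56 to 8.36). Krt5, its type II partner, was at 485 and 2.17 CPM (log2 7.81). Krt17 was at 322 and 1.86 CPM (log2 7.44). Krt27 was at 65.6 and 0.309 CPM (log2 7.73, 6.50 to 9.36, with 5 mesenchymal UMIs), and Krt80, a type II keratin of differentiating cells, at 52.5 and 0.371 CPM (log2 7.15). The simple epithelial pair stood less far apart, Krt8 at 60.5 and 1.67 CPM (log2 5.18, 4.62 to 5.79) and Krt18 at 48.4 and 1.86 CPM (log2 4.71, 4.17 to 5.29). Among the smaller members, Krt28 had 43 epithelial UMIs and 0 mesenchymal, a log2 ratio of at least 4.51 against a floor of 3 UMIs.

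Krt10 was found in epithelium and mesenchyme alike. It stood at 56.9 CPM (52.3 to 61.7) in epithelial and 47.3 CPM (44.0 to 50.8) in mesenchymal cells, a log2 ratio of 0.27 (0.11 to 0.42). It made up 73.9% of the mesenchymal keratin UMIs and 2.92% of the epithelial ones. Gm11940 overlaps Krt10 on the opposite strand, and whether counting used strand is not given in the sources used here. Krt1, the type II partner known for Krt10, had 56 epithelial and 8 mesenchymal UMIs beside 577 and 765 of Krt10. Krt222 had 8 UMIs in epithelium and 53 in mesenchyme (log2 -2.06, -3.34 to -0.97). It was highest in the mesenchymal cluster led by Bglap, the osteocalcin gene, with 29 UMIs in 26 of 188 cells, a level of 12.4 CPM (8.33 to 17.9).

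**Figure D1:**
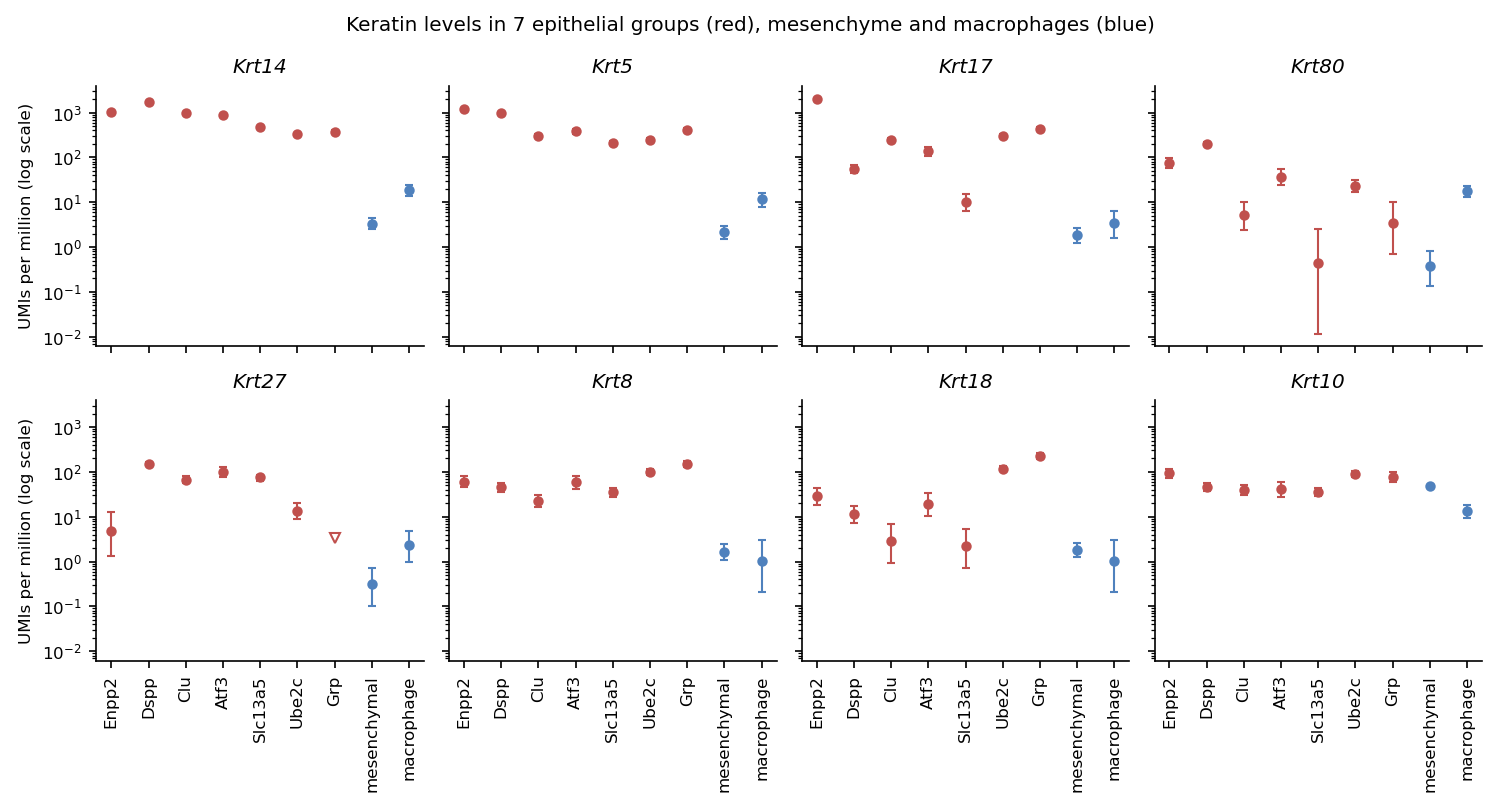
Level of each of the 8 described keratins in CPM (log axis) in the 7 epithelial groups (red), in mesenchymal cells and in macrophages (blue); points are summed UMIs over the group, bars exact 95% Poisson intervals, and the open triangle marks 0 UMIs, drawn at the level of 3 UMIs. Krt14 lies between 330 and 1677 CPM in every epithelial group, Krt17 spans 10.3 to 2031 CPM, and Krt10 is at 47.3 CPM in mesenchyme.

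Clustered again without keratins, the epithelium fell into 7 groups, each called here by a gene among its 10 leading genes. The Enpp2 group (88 cells) was stratum intermedium-like by its markers, the Dspp group (135 cells) early ameloblast-like, the Clu group (93 cells) ameloblast-like, and the Grp group (69 cells) outer enamel epithelium or stellate reticulum-like. The Slc13a5 group (175 cells), the Ube2c group (165 cells) and the Atf3 group (43 cells) stayed unnamed. Amelx and Ambn were among the leading genes of the Slc13a5 group and cell cycle genes led the Ube2c group. Immediate early and heat shock genes led the Atf3 group. Amelx took 36.5% of the UMIs of the Slc13a5 group, 25.9% of the Clu group and 24.98% of the Atf3 group, so group levels are also given on totals without the 5 dominant genes where that changes an order. For each group's ratio to the other epithelial cells, the reduced totals leave out the genes above 1% of either of those sides, which are 5 for the Atf3, Dspp and Slc13a5 groups, 6 for the Clu, Ube2c and Grp groups and 7 for the Enpp2 group.

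The family level differed widely across the groups. With all UMIs as the total it was 4708 CPM (4561 to 4858) in the Enpp2 group and 3167 CPM in the Dspp group. The Grp, Clu and Atf3 groups were at 1719, 1695 and 1663 CPM, the Ube2c group at 1235 CPM and the Slc13a5 group at 845 CPM (807 to 884). In the Grp group 1 cell held 242 of the 1503 keratin UMIs. A median cell held 9 keratin UMIs there, 25 in the Clu group and 17 in the Atf3 group, at median depths of 5958, 13232 and 10877 UMIs. On the reduced totals the Slc13a5 group was at 1548 CPM, above the Ube2c group at 1286 CPM, so the order of these groups depends on the total. Each group was then set against the other epithelial cells. Over 7 groups and the measured members, 16 pairs of member and group were higher and 31 were lower. Among all genes, the share called higher ran from 1.97% to 24.1% over the groups and the share called lower from 8.65% to 38.5%, so these counts are read group by group below.

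Krt14 was highest in the Dspp group, at 1677 CPM (1620 to 1736). The Enpp2 group at 1022 CPM (954 to 1093) and the Clu group at 994 CPM (948 to 1043) did not differ beyond counting error on these totals. On reduced totals the Clu group, at 1526 CPM, and the Atf3 group, at 1266 CPM, stood above the Enpp2 group at 1078 CPM. With all UMIs, the Atf3 group followed at 865 CPM and the Slc13a5 group at 470 CPM. The Grp group at 365 CPM and the Ube2c group at 330 CPM were lowest and overlapped. Against the other epithelial cells Krt14 was higher in the Dspp group (log2 1.43) and lower in the Ube2c (log2 -1.51) and Grp groups (log2 -1.25). Among cells with a mitochondrial share of at most 10% the Grp and Enpp2 groups shared 1 closest group of 99 cells, where Krt14 was at -0.57 and not called.

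Krt5 followed another order. It was highest in the Enpp2 group, at 1200 CPM (1126 to 1277), then in the Dspp group at 968 CPM (925 to 1013). The Grp group was at 406 CPM, the Atf3 group at 383 CPM, the Clu group at 301 CPM, the Ube2c group at 244 CPM and the Slc13a5 group at 211 CPM. On reduced totals the Atf3 group, at 560 CPM, and the Clu group, at 462 CPM, stood above the Grp group at 425 CPM, and the Slc13a5 group, at 387 CPM, above the Ube2c group at 254 CPM. It was called higher in the Enpp2 (log2 1.51) and Dspp groups (log2 1.38) and lower in the Ube2c (log2 -1.15) and Slc13a5 groups (log2 -1.41). The Slc13a5 call ended on the reduced totals (log2 -0.76) and the Ube2c call with each cell weighted equally (log2 -0.86). It was also not called where groups merged: at log2 0.85 with at most 10% mitochondrial UMIs, in a group closest to both the Enpp2 and the Grp group, and, in groups closest to both the Ube2c and the Grp group, at -0.87 with doublets and haemoglobin-rich barcodes kept and at -0.90 at epithelial resolution 0.25.

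The balance of this pair differed between groups. In UMIs counted at the 3′ end, which are not divided by gene length, the epithelium held 1.70 Krt14 per Krt5. The ratio was 3.30 in the Clu group, 2.26 in the Atf3 group and 2.23 in the Slc13a5 group, 1.73 in the Dspp group and 1.35 in the Ube2c group, and below 1 in the Grp (0.90) and Enpp2 groups (0.85). As a share of the pair, Krt14 made up 76.7% (74.9 to 78.5) in the Clu group and 46.0% (43.7 to 48.3) in the Enpp2 group.

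Krt17 was highest in the Enpp2 group. It stood there at 2031 CPM (1935 to 2131), against 171 CPM in the other epithelial cells (log2 3.57, 3.47 to 3.67), and at 43.1% it was the largest part of that group's keratin UMIs. The Grp group was next at 440 CPM (398 to 487), then the Ube2c group at 301 CPM, the Clu group at 244 CPM and the Atf3 group at 137 CPM. The Dspp group was at 54.9 CPM (44.9 to 66.4) and the Slc13a5 group at 10.3 CPM (6.55 to 15.5). On these totals each of these neighbours was separated by more than counting error. That error does not cover spread between cells. In the Atf3 group 1 cell held 64 of the 92 Krt17 UMIs, and the upper quartile was 0 UMIs. The highest Slc13a5 cell held 11 of that group's 23. The place of the Atf3 group above the Dspp group therefore leans on 1 cell. In the Grp group 1 cell held 81 of the 385 Krt17 UMIs, with a median of 1 and an upper quartile of 2 UMIs. The Ube2c group below it had a median of 1 and an upper quartile of 3 UMIs, with 47 in its highest cell. The order of these groups in summed level is thus not an order of their typical cells. On reduced totals the Clu group, at 374 CPM, stood above the Ube2c group at 314 CPM. Krt17 was called lower in the Slc13a5 (log2 -5.31), Dspp (log2 -2.81) and Atf3 groups (log2 -1.30). With at least 1000 genes per cell the group closest to the Atf3 group, 104 cells that shared 17.8% of the joint cells with it and were also closest to the Clu group, was at log2 -0.65. The Atf3 call ended with at most 10% mitochondrial UMIs (log2 -0.93).

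Within single cells, 47 of the 88 Enpp2 cells (53.4%, 42.5 to 64.1) held more Krt17 than Krt14 UMIs, and none held neither. The share was 27.5% in the Grp group and 27.3% in the Ube2c group. It was 6.45% in the Clu group, 2.33% in the Atf3 group, 1.48% in the Dspp group and 0.571% (1 of 175 cells) in the Slc13a5 group. An Enpp2 cell held a median of 7.5 Krt17 UMIs (quartiles 2 and 25, highest 159) and of 5 Krt14 UMIs. The last 500 bases of the Krt14 and Krt17 transcripts shared 23 of 441 stretches of 60 bases (5.22%). Reads that lie wholly within shared sequence cannot be assigned to either gene by sequence. How such reads were counted is not given in the sources used here.

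**Figure D2:**
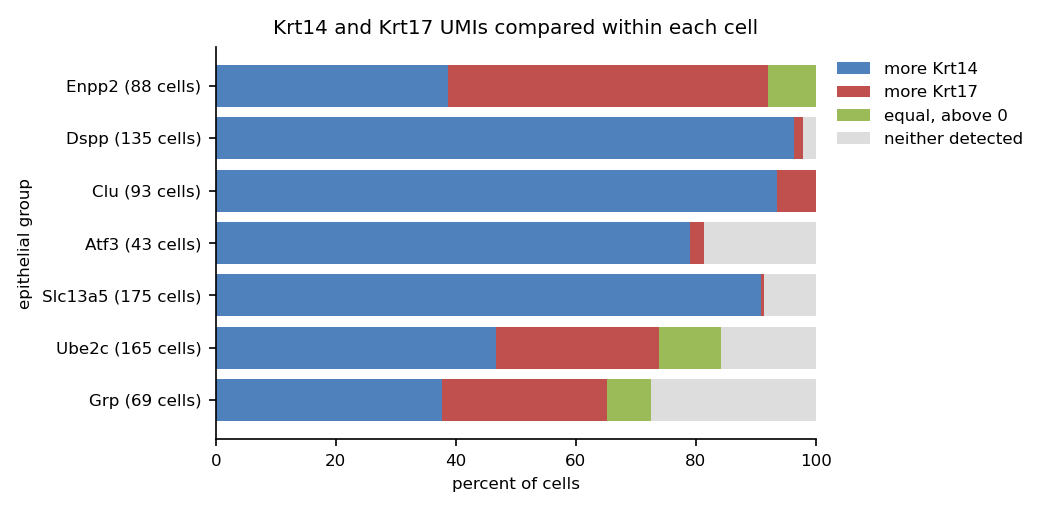
Share of cells (percent) in each of the 7 epithelial groups with more Krt14 than Krt17 UMIs, more Krt17, equal numbers above 0, or neither detected. More Krt17 than Krt14 is seen in 53.4% of the Enpp2 cells and in 0.571% of the Slc13a5 cells.

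Several smaller members, singled out after their values were seen, were also high in the Enpp2 group. Krt15, a type I keratin of basal and stem cell compartments, had 24 of its 30 epithelial UMIs there (29.1 CPM, log2 5.50, 4.17 to 7.08) and its other 6 in the Grp group. Krt7, a type II keratin of ductal and simple epithelia, had 26 of 46 (log2 3.88) and Krt28 had 24 of 43 (log2 3.84, 2.91 to 4.79). Krt1 had 11 of 56 UMIs there (13.3 CPM, log2 1.47) and 12 in the Grp group (13.7 CPM, log2 1.53), levels that overlap. Krt75, also known from the enamel organ, had 18 of 20 epithelial UMIs in the Enpp2 group, Krt73 had 17 of 20, and Krt36 had 16 of 24 with the other 8 in the Grp group. These last members lay under the minimum of 30 UMIs and were not compared. In the Enpp2 group as a whole, 6 of 12 measured members were higher and 1 was lower, against 18.1% and 8.65% of the 10565 genes measured.

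Krt80 was highest in the Dspp group. It was at 200 CPM (181 to 221) there and 17.8 CPM in the other epithelial cells (log2 3.49, 3.22 to 3.78). The Enpp2 group was at 76.4 CPM (58.7 to 97.8), the Atf3 group at 37.1 CPM and the Ube2c group at 23.6 CPM, and the last pair overlapped. The Clu group held 9 UMIs (5.27 CPM) and the Grp group 3 (3.43 CPM, 0.708 to 10.0). The Slc13a5 group held 1 UMI in 175 cells, a log2 ratio of -7.23 (-12.5 to -4.74), although its cells were among the deepest with a median of 11462 UMIs. After each cell was thinned to 2000 UMIs, 37.2% (28.9 to 46.2) of Dspp cells held a Krt80 UMI, against 75.6% before thinning.

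Krt27 shared the high level in the Dspp group, at 149 CPM (132 to 167), with a log2 ratio of 1.69, but not the drop of Krt80 in the Clu and Slc13a5 groups. The Atf3 group was at 99.5 CPM, the Slc13a5 group at 75 CPM and the Clu group at 66.7 CPM (55.0 to 80.2), each overlapping the next. The Ube2c group was at 13.7 CPM (log2 -2.51) and the Enpp2 group held 4 UMIs (4.85 CPM, log2 -3.87, -5.75 to -2.51). The Grp group held 0, with an exact interval up to 4.22 CPM; 3 UMIs there would be 3.43 CPM. Its last 500 bases shared 17 of 441 stretches of 60 bases (3.85%) with Krt25, another type I hair follicle keratin that had 6 UMIs in the cells. In the Dspp group, 4 of 12 members were higher and 5 lower, beside 5.91% and 18.9% of all genes.

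Krt8 and Krt18 were highest in the Grp group. Krt18 was at 224 CPM (194 to 258) there, against 31.8 CPM in the other epithelial cells (log2 2.82, 2.55 to 3.08), and at 119 CPM (104 to 135) in the Ube2c group (log2 1.88). The Enpp2 group was at 29.1 CPM, the Atf3 group at 19.3 CPM and the Dspp group at 11.4 CPM. The Clu and Slc13a5 groups held 5 UMIs each (2.93 and 2.25 CPM). Krt8 was at 150 CPM (125 to 178) in the Grp group (log2 1.52) and at 98.7 CPM (85.1 to 114) in the Ube2c group, and between 22.8 and 60.7 CPM in the other 5 groups. With at least 1000 genes per cell the Grp and Ube2c groups shared 1 closest group of 158 cells, in which Krt8 was not called (log2 0.99).

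The members of this pair did not keep one ratio. Krt18 made up 59.9% (54.4 to 65.3) of the pair's UMIs in the Grp group and 54.6% in the Ube2c group. It made up 20.2% (13.1 to 29.0) in the Dspp group, 11.4% in the Clu group and 5.95% (1.96 to 13.3) in the Slc13a5 group, where Krt8 still had 79 UMIs. Mesenchymal markers were also raised in the Grp group, with 8 of 9 detected, Twist1 at 0 and a summed level of 590 CPM, against 183 CPM over the epithelium and 15292 CPM in mesenchyme. Their part in the Krt8 and Krt18 levels was not tested. In mesenchyme as a whole Krt8 was at 1.67 CPM and Krt18 at 1.86 CPM. The mesenchymal cluster led by Bmp3 held 0 UMIs of both. In the one led by Sfrp2 they were at 8.28 CPM (5 UMIs) and 6.62 CPM (4 UMIs). In the unnamed Fmod cluster they were at 8.38 CPM (15 UMIs) and 5.59 CPM (10 UMIs).

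Other calls of the Grp group included Krt15 (log2 1.41, -0.17 to 2.73) and Krt7 (log2 1.16, -0.15 to 2.28), whose intervals include no difference. Lower in it were Krt80 (log2 -4.06, and -0.70 in the merged Grp and Enpp2 group at 10% mitochondrial UMIs) and Krt27. In all, 5 of 12 members were higher and 3 lower, where 24.1% and 8.97% of genes were. In the Ube2c group 1 member was higher and 6 were lower, with 20% and 11.2% of genes. In the Clu group none was higher and 6 were lower (2.58% and 27.9% of genes), and in the Slc13a5 group none was higher and 8 were lower (1.97% and 38.5% of genes). In the Atf3 group none was higher and 2 were lower (2.86% and 16.7% of genes). On the reduced totals the calls of Krt15 in the Clu (log2 -0.64) and Slc13a5 groups (log2 -0.84) and of Krt7 in the Grp group (log2 0.84) ended, and Krt18 was called lower in the Enpp2 group (log2 -1.09).

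Counted on those totals, 15 pairs of member and group were higher and 29 lower. Members higher and lower were then 6 and 2 in the Enpp2 group (10.7% and 12.3% of genes), 4 and 5 in the Dspp group (4.12% and 22.1%) and 4 and 3 in the Grp group (14.9% and 13.0%). They were 1 and 6 in the Ube2c group (10.6% and 17.3%), 0 and 5 in the Clu group (5.93% and 18.2%), 0 and 6 in the Slc13a5 group (7.04% and 19.8%) and 0 and 2 in the Atf3 group (4.74% and 12.4%).

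Krt10 was the flattest of the 8 described members across the epithelium. Its highest level was 92.2 CPM (72.7 to 115) in the Enpp2 group and its lowest 35.9 CPM (28.5 to 44.7) in the Slc13a5 group, and it was called in no group. On the reduced totals its levels lay between 54.1 and 97.3 CPM.

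**Figure D3:**
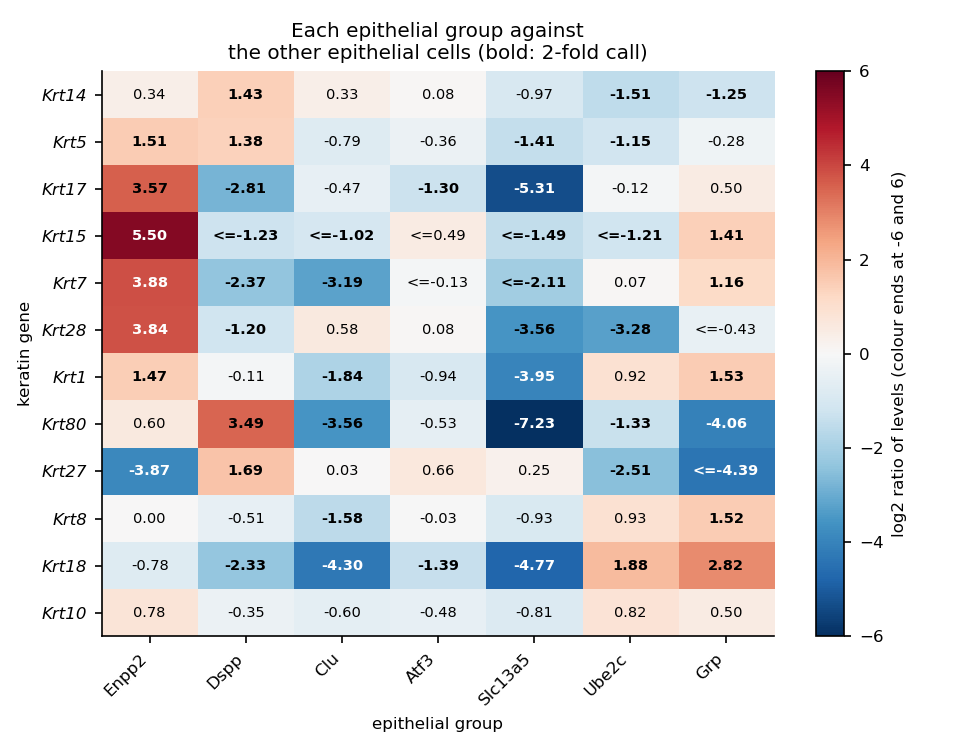
Log2 ratio of the level of each of 12 measured keratins (rows) in each epithelial group (columns) to its level in the other epithelial cells; red is higher, blue lower, bold marks a 2-fold call, and <= marks an upper bound where the group held 0 UMIs. Krt17, Krt15, Krt7 and Krt28 are higher in the Enpp2 group (3.57 to 5.50), Krt80 in the Dspp group (3.49) and Krt18 in the Grp group (2.82).

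The make-up of the keratin pool followed these values. Krt14 made up 52.1% to 58.7% of the keratin UMIs in the Dspp, Clu, Atf3 and Slc13a5 groups and 21.2% to 26.7% in the Enpp2, Ube2c and Grp groups. Krt8 and Krt18 together reached 21.8% in the Grp group and 17.6% in the Ube2c group. Type I keratins as a whole were 68.4% (67.7 to 69.0) of the type I and II UMIs in the epithelium, from 61.3% (60.1 to 62.5) in the Dspp group to 80.3% (78.8 to 81.7) in the Clu group. In mesenchyme, where Krt10 led, the share was 90.9% (89.0 to 92.7).

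**Figure D4:**
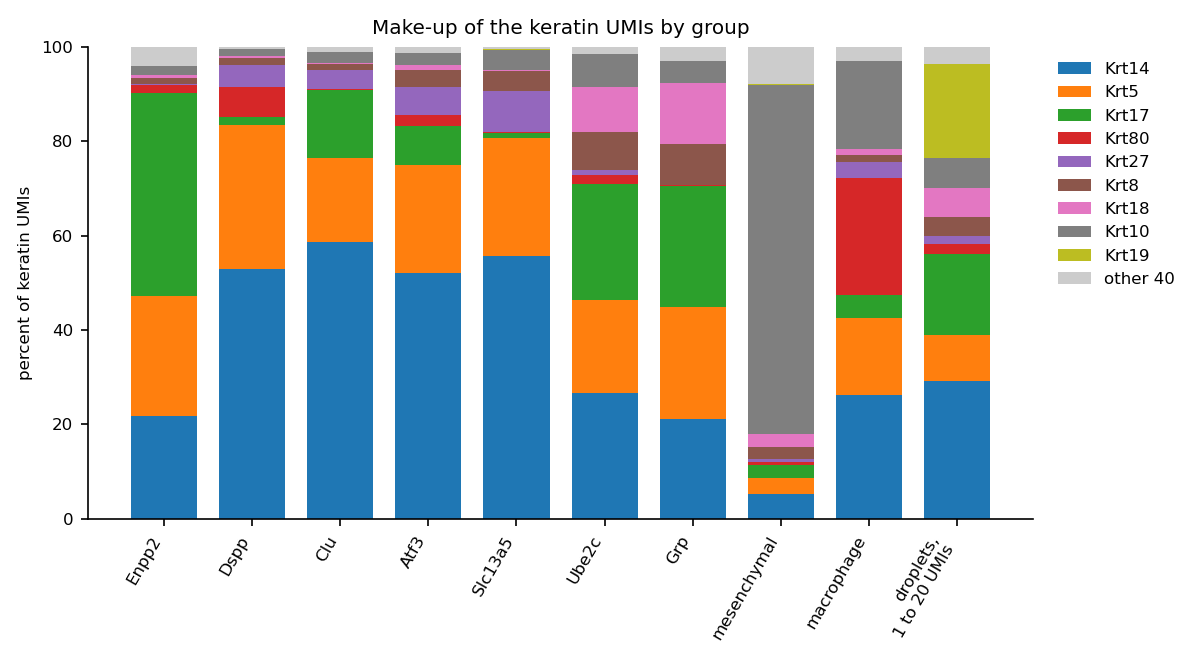
Percent of all keratin UMIs that each keratin contributes in the 7 epithelial groups, mesenchymal cells, macrophages and droplets of 1 to 20 UMIs, with the other 40 members in grey. Krt10 is 73.9% of the mesenchymal bar, Krt80 is 24.9% of the macrophage bar and Krt19 is 19.98% of the droplet bar.

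Shares of cells with a UMI were taken at equal depth. At 2000 UMIs per cell, which left out 690 of the 4538 cells as shallower, Krt14 was found in 64.6% (60.9 to 68.1) of 711 epithelial cells, Krt5 in 53.4% and Krt17 in 24.6% (unthinned 86.8%, 83.7% and 45.1%). In macrophages, which should lack keratins, Krt14 was found in 2.02% of 496 cells (3.41% unthinned). Median depths were 9307 UMIs in epithelium and 4176 in macrophages. Krt5 was seen in 59.9% of thinned epithelial cells with Krt14 and in 41.7% of those without. Krt8 was seen in 21.4% of cells with Krt18 and in 8.1% of those without. Cells of different groups are pooled in these shares, and within the Grp group Krt8 was in 5 of 21 cells with Krt18 and 5 of 40 without.

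In mesenchyme, the 5 described keratins that ranked highest in ratio stood below 1% of their epithelial level. Krt14 was at 0.405% (0.305 to 0.529), Krt5 at 0.446%, Krt17 at 0.575%, Krt27 at 0.472% and Krt80 at 0.706% of it, while Amelx, which only ameloblasts are known to make at this level, was at 0.344% and Ambn, another enamel matrix gene, at 1.28%. Krt8 and Krt18 were at 2.76% (1.82 to 4.01) and 3.83% (2.59 to 5.47). In macrophages Krt14 was at 2.27% and Krt5 at 2.38%, and 35 of the 44 Krt14 UMIs of the main macrophage cluster, led by Ccl7, lay in 1 cell.

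Krt80 departed from this in some myeloid clusters. Macrophages held 52 Krt80 UMIs, 17.7 CPM (13.2 to 23.2), which is 33.6% (25.1 to 44.1) of the epithelial level. They lay mainly in the cluster led by Ly6c2 and Ccr2, genes of monocytes, with 41 UMIs in 34 of its 160 cells and a level of 65.6 CPM (47.1 to 89.0). No cell there held more than 3. In that cluster 3 of the 8 epithelial markers were detected, with 5 UMIs in all, and Epcam, Cdh1, Trp63 and Cldn3 were among those at 0. Of the 34 cells, 2 held a Krt14 or Krt5 UMI. The unnamed cluster led by H2-Eb1, an MHC class II gene, held 22 Krt80 UMIs in 12 of 202 cells (29.8 CPM, 18.7 to 45.2), 6 of them in 1 cell. It held 0 Krt14, 7 Krt5 and 4 Krt17 UMIs, and of the 12 cells with Krt80, 0 held a Krt14 or Krt5 UMI. Krt80 was lower in the macrophage cluster led by Ccl7 (10 UMIs, 4.84 CPM) and in neutrophils (2 UMIs, 2.86 CPM). The only cluster named dendritic, 26 cells led by Cox6a2 and Siglech, held 0 UMIs, with an interval up to 44.3 CPM. The unnamed H2-Eb1 cluster had 7 macrophage and 3 dendritic markers raised, so that 0 does not stand for all dendritic-like cells. Gm35853 and Mir1941 overlap Krt80 on the opposite strand, and whether counting used strand is not given in the sources used here. Among the other described members, Krt10, Krt5 (Gm44323) and Krt8 (Gm36026) are also overlapped on the opposite strand.

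Krt83 and Krt81, type II hair keratins, were seen almost wholly outside the epithelium. Of 30 Krt83 UMIs in the cells, 12 were in 9 of the 38 cells of the unnamed Hs3st1 cluster (142 CPM, 73.5 to 248.5), 9 in neutrophils, 6 in T or NK cells, 2 in macrophages and 1 in epithelium. Krt81 had 5 UMIs in 2 cells, both neutrophils, with 4 of them in 1 cell. These members were named after their values were seen.

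**Figure D5:**
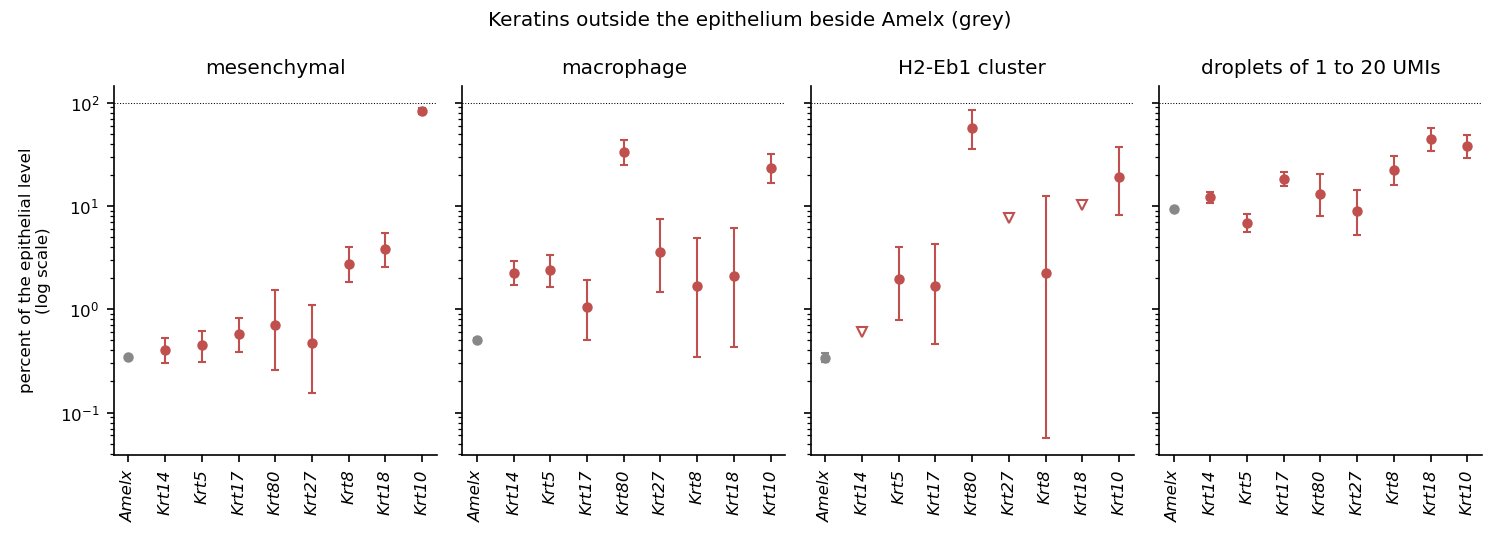
Level of Amelx (grey) and of the 8 described keratins (red) as a percent of their epithelial level (log axis; the dotted line is 100%) in mesenchymal cells, macrophages, the unnamed H2-Eb1 cluster and droplets of 1 to 20 UMIs; bars are exact 95% Poisson intervals of the group's count and open triangles mark 0 UMIs, drawn at the upper end of that interval. Krt10 stands at 83.2% in mesenchyme and Krt80 at 33.6% in macrophages, while Krt14 is at 0.405% and 2.27%.

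Most measured genes for proteins that anchor keratin filaments were also higher in epithelium. Beside 10.8% of all genes higher and 19.8% lower in epithelium than in mesenchyme, the lists named here and in the next paragraph stood as follows. Of the desmosomal plaque and plakin genes, 9 of 10 measured were higher in epithelium than in mesenchyme and none was lower, including Ppl (periplakin, log2 7.01), Pkp3 (plakophilin, log2 6.81) and Dsp (desmoplakin, log2 6.06). Plec was not called (log2 0.28). Perp, among the 9 that were higher, was also a marker used to name the epithelial class. Its direction was therefore set in part by that naming. All 7 hemidesmosome genes measured were higher, including Lamb3 (log2 8.98) and Lama3 (log2 8.50), laminin chains of the basement membrane. Of 7 measured genes of other intermediate filaments and lamins, none was higher and 4 were lower. Vim (vimentin, the mesenchymal filament) was at 47.8 CPM in epithelium and 718 CPM in mesenchyme (log2 -3.91), and Nes was at log2 -3.47. Medians of the 3 lists were 5.403, 7.93 and -1.53, against -0.28 for all genes.

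Among epithelial transcription factors 6 of 9 were higher, including Esrp1 (an RNA splicing factor placed on that list, log2 6.98) and Trp63 (log2 6.31), and Tfap2a (log2 -1.45) and Tfap2c (log2 -2.04) were lower. Of the keratin organisers 3 of 7 were higher: Sfn (log2 6.89), Krtcap3 (log2 6.08) and Fam83h (log2 3.83), which recruits casein kinase to keratin filaments and is a known amelogenesis imperfecta gene. Trp63 and Sfn were also markers used to name the epithelial class, so their direction was set in part by that naming. Of 8 cornification genes 2 were measured, with Tgm1 lower (log2 -1.57) and Lor not called (log2 0.03). Of 57 keratin-associated protein genes only Krtap17-1 was measured (46 UMIs and 0, log2 at least 4.61), and none of 4 keratins with lettered symbols was.

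Within the epithelium, 5 of 10 plaque genes were called higher in the Enpp2 group and none lower, where 18.1% of genes were higher and 8.65% lower, with Eppk1 (log2 3.32), Pkp1 (log2 3.08) and Dsp at 340 against 51.1 CPM (log2 2.73). In the Slc13a5 group none was higher and 5 were lower (Dsp log2 -4.01), where 38.5% of genes were lower. On reduced totals 1 plaque gene (Dst) was higher and 4 were lower there, beside 7.04% and 19.8% of genes. The laminin genes Lama3 and Lamb3 went the other way and were lower in the Enpp2, Grp and Ube2c groups and higher in the Clu and Slc13a5 groups. Vim was higher in the Enpp2 (252 CPM, log2 3.09) and Grp groups (145 CPM, log2 1.91) and lower in the Dspp, Clu, Atf3 and Slc13a5 groups (log2 -3.35 to -2.31), while mesenchymal markers summed to 257 CPM in the Enpp2 group. Fam83h was called in no group (log2 -0.86 to 0.98).

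Genes with the most similar pattern over the 27 clusters of all cells were, by Pearson's r of log2(CPM + 5), Fxyd3 (0.96), Col17a1 (0.95) and Ckmt1 (0.93) for Krt14. For Krt5 they were Sfn (0.94), Fxyd3 (0.93) and Trp63 (0.93), and for Krt17 Isl1 (0.96), Dsp (0.95) and Necab1 (0.95). For Krt10 they were Oxct1 (0.92), Pcnx4 (0.90) and Ndufb6 (0.89). The clusters share 1 library.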

How the data were processed

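Per the submitters' processing notes, reads were aligned to mm10 and R 3.4.1 and Seurat were used; the matrix header names software version 3.0.2. The deposited values are UMI counts per gene and barcode, 68931830 in 6794880 barcodes, without normalization. Barcodes with at least 500 genes and at most 20% mitochondrial UMIs were kept (4775), and 122 with a doublet score above 0.15 and 115 rich in haemoglobin genes were removed. The doublet caller's own threshold marked 1 barcode, so a fixed score was used. Clusters (scanpy 1.11.5, 2000 variable genes, 30 components, Leiden resolution 1.0, and 0.5 for the epithelium) left out keratin and mitochondrial genes and were named by at least 3 raised markers, unless markers of another class outnumbered that class's own among the 10 leading genes. Counts were summed per group as CPM with exact Poisson intervals. Ratios have exact conditional binomial intervals and shares Clopper-Pearson intervals (scipy 1.17.1). The call was checked on simulated Poisson counts per group, the model behind the intervals. That check holds no spread between cells, so it does not cover UMIs clumped in single cells. Keratins with at least 100 UMIs over epithelium and mesenchyme are described, with the 3 most similar genes for those with at least 1000 UMIs; smaller members are named where singled out. From each partner list the 2 to 4 members with the largest ratios are named, plus Vim and Fam83h. The members and lists were chosen with earlier results of these data known. Alternatives covered totals, filters, resolutions, UMI minimums and thinning. Promoters are those of RefSeq; all 49 gene IDs matched GENCODE M21. Some genes of the lists are not reported here.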

Additional observations from a re-analysis of the deposited data

Results flagged for a closer look

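Krt19, a type I keratin of simple and ductal epithelia, was nearly absent from cells but present in near-empty droplets, which no comparison between cell classes used. Droplets of 1 to 20 UMIs held 197 Krt19 UMIs, 68.4 CPM, while all 4538 cells together held 3. The level was 17.2 CPM in droplets of 21 to 100 UMIs and 0.276 CPM in those above 100 and up to 500. Among 2220 genes with at least 100 UMIs in the smallest droplets, Krt19 ranked 14 by its excess over the cells (log2 3.85). Ranked above it were Myl7, Actc1, Ttn, Myh7, Tnnt2 and Myh6, genes of heart and striated muscle, with 253 (Myh6) to 2214 (Myl7) UMIs in these droplets and 0 (Myh6) to 72 (Myl7) in the cells. The source of these molecules was not tested.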

How the results depend on the processing

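All 64 epithelial to mesenchymal log2 ratios of the 8 described members kept their direction and their side of the 2-fold line under 8 alternatives each, among them the Fmod cluster counted as mesenchymal, which was added after seeing the data. Of such values for epithelial groups, 412 kept them, 25 passed the line, 10 no longer did and 1 reversed: Krt18 in the Enpp2 group was 2.16, in place of -0.78, with mitochondrial shares of at most 10%. There the closest group held 99 cells, was also the closest to the Grp group, and shared 50.5% of the joint cells with the Enpp2 group. Other matches were looser. At epithelial resolution 0.25 the share was 8.68% for the Atf3 group and 31.1% for the Grp group. It was 29.2% for the Clu group with doublets and haemoglobin-rich barcodes kept. A merged group was counted for each group it was closest to, so the group counts do not measure how stable the same cells are. The family's epithelial level was 2501 CPM on reduced totals, 2064 CPM with each cell weighted equally, 1912 CPM with doublets and haemoglobin-rich barcodes kept and 1863 CPM at 10% mitochondrial UMIs. Pairs of member and group called higher were 27 with at least 10 UMIs and 27 at epithelial resolution 1.0, and pairs called lower were 18 at resolution 0.25, where 4 groups formed. A minimum of 10 UMIs admits more members and resolution 1.0 gave 9 groups, so these counts cannot be read against 16 and 31. Epithelial shares were 47.2% (Krt14) and 16.4% (Krt17) at 1000 UMIs and 86.8% and 45.1% unthinned, and the macrophage share of Krt14 was 0.861% at 1000 UMIs. Krt14 in droplets above 100 and up to 500 UMIs, a setting added after seeing the data, was at 59.4 CPM, in place of 99.96 CPM at 1 to 20, and Krt19 was at 17.2 CPM at 21 to 100 UMIs and 0.276 CPM above 100. The causes were not tested. No paired analysis was possible because the matrix is 1 sample with no map from barcodes to titles. Members under 30 UMIs cannot be compared at this depth.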
